A study of Sus scrofa with 12 samples.

Results

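The 26 genes described here are the interleukins and interleukin receptors named on a porcine gene expression array, out of 6765 genes that the array's annotation names. A gene was included when a probe set carried a single gene symbol made of IL followed by a digit. IL1A, IL1B, IL2RA, IL2RG and IL7R were left out. The 26 comprise 16 ligands, 9 receptor chains and IL18BP, a secreted protein that binds interleukin-18 and blocks it. The symbol rule itself used no measured value, but the members were chosen with earlier results of these data known. Where a gene had several probe sets, the one of highest mean over the arrays was used.

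Interleukins are secreted proteins through which leukocytes and cells of the vessel wall signal to each other. Members of the interleukin-1 family act through receptors that recruit MYD88 and activate NF-kappa B. Most of the others act through receptors that activate JAK kinases and STAT transcription factors. In an injured artery they are produced by infiltrating T cells and macrophages and by endothelial and smooth muscle cells, and they affect leukocyte recruitment and smooth muscle growth.

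The tissue was coronary artery wall of Yorkshire farm pigs, dissected from around the stent 28 days after angioplasty and implantation. The 3 groups differed in the stent, which was bare metal (BMS), released sirolimus (SES) or released zotarolimus (ZES), and every animal had undergone angioplasty and stenting, so no unstented artery was part of the comparison. Each group held 4 segments from 2 pigs, and each pig carried 1 stent type, so that pig and stent cannot be told apart beyond those 2 animals. Segments are numbered within a group, numbers 1 and 2 being segments of one animal and numbers 3 and 4 of its companion. In 5 pigs the segments came from the right coronary artery (RCA, odd numbers) and the left anterior descending artery (LAD, even numbers). In the remaining SES pig, SES 1 was from the left circumflex artery and SES 2 from the RCA. SES 4 was thus the only LAD segment with SES, while BMS and ZES had 2 each, so artery and stent type are not balanced. Sirolimus inhibits the mTOR kinase, and zotarolimus is an analog of it in which a tetrazole group replaces a hydroxyl group. The sources used here give neither drug doses nor the animals' age and sex.

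The values are log2 signals, on which a difference of 1 is a doubling. Each array's background level was the 95th percentile of 59 controls whose target RNA had not been added. It lay between 5.27 and 5.96 on BMS arrays, 4.15 and 5.39 on SES arrays and 4.19 and 5.16 on ZES arrays, and between 61.0% and 74.5% of all probe sets exceeded it. The mean spike-in signal was 15.74 to 16.52 on BMS arrays and 14.62 to 15.60 on SES arrays, without overlap, and 14.60 to 15.91 on ZES arrays. For GAPDH, the 3' control probe set minus the 5' one was 4.13 to 5.67 with BMS, 2.71 to 3.81 with SES and 4.15 to 5.09 with ZES. The 3' signal thus far exceeded the 5' signal of the same transcript on every array, and by more on each BMS array than on any SES array. Whether this unevenness along transcripts lowered the signal of weakly detected genes was not tested. The part of these controls in the results was examined only by adding each as a covariate. For SES against BMS neither control overlapped between the groups, so such a fit cannot tell the control apart from the stent. The signal of the 28S ribosomal RNA controls was 13.3 on BMS 1 and 13.42 on ZES 2. On every other array it lay between 6.95 and 10.12. It was not fitted as a covariate, and its part was examined only by leaving out these arrays. Among smooth muscle markers, 5 of 6 measured genes were above background on all 12 arrays, and among endothelial markers 3 of 7 were.

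Detection separated the family into a steadily measured part and a part near the floor of the array. Of the 26 genes, 8 were above background on all 12 arrays, against 41.1% of all probe sets. These were the ligands IL10, IL16, IL18 and IL34, the receptors IL4R, IL11RA and IL27RA, and IL18BP. A further 6 were above it on 6 to 11 arrays, 10 on 1 to 5 arrays, and IL7 and IL17A on none. IL7 supports lymphocyte survival, and IL17A is the signature cytokine of Th17 cells. A single array held between 11 and 17 of the 26 above its background, the fewest on BMS 4 and the most on BMS 3, SES 3 and ZES 4.

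**Figure D1:**
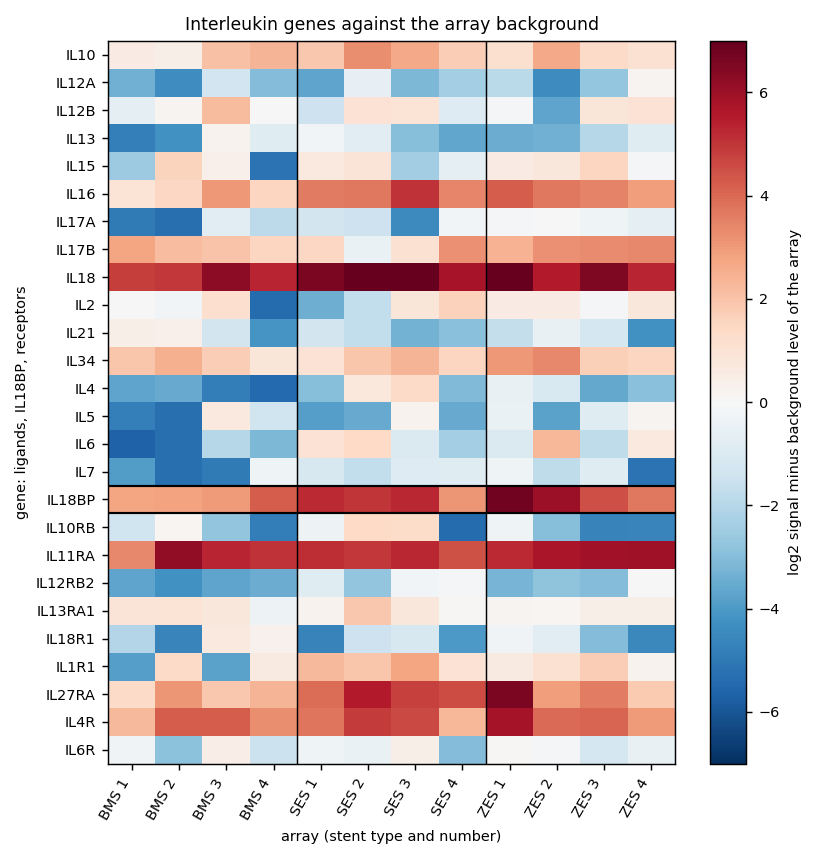
Log2 signal of each interleukin gene (vertical axis, with ligands at the top, then IL18BP, then receptors) minus the background level of the array (horizontal axis, 12 arrays), as colour; values beyond the ends of the colour bar take its end colours. IL18, IL11RA, IL4R, IL27RA, IL18BP, IL16, IL10 and IL34 stand above background in every column, while IL7 and IL17A do so in none.

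A filter removed the 30% of probe sets with the lowest mean over the arrays, which placed the limit at a mean of 4.30. It left 14 of the 26 genes for the test, 8 ligands, 5 receptors and IL18BP. IL2 was the nearest gene inside the limit, with a mean of 4.55, and IL6R the nearest outside it, with 4.21. None of the 12 genes outside the limit was above background on more than 4 arrays.

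SES was set against BMS to compare a sirolimus-eluting stent with a bare one. The labels name the stent type only, so the drug cannot be told apart from the rest of the stent. None of the 14 genes passed the threshold in limma (adjusted p under 0.05), where 0.679% of all probe sets did, and 4 of the 14 had an unadjusted p under 0.05, against 14.3% of all probe sets. The comparison of ZES with BMS called 0 of 14 as well, with 0.0% of all probe sets called, and 2 had an unadjusted p under 0.05, against 8.99%. The direct comparison of the drug-eluting stents, ZES with SES, called 0 of 14, where 0.0714% of all probe sets were called, with 2 at an unadjusted p under 0.05 against 10.0%. The limma F test over the 3 stent types called 0 of 14, against 0.345% of all probe sets, and 2 of 14, IL16 and IL27RA, had an unadjusted p under 0.05, against 13.4%. The comparisons with BMS share the same 4 BMS arrays. For SES against BMS 114 of 16799 probe sets passed in the main fit. With a term for the artery 7 passed, and without BMS 1 and ZES 2, the arrays of high 28S signal, 26 passed. None of the 14 genes passed in either of these fits.

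As a group, the 8 tested ligands had 4 positive and 4 negative differences for SES against BMS. Their median was -0.06, against -0.02 over all probe sets, and it changed sign with quantile normalization (0.17) and with median centring (0.13). For ZES against BMS 5 ligands were positive and 3 negative, with a median of 0.10 against -0.01 over all probe sets. For ZES against SES 4 were positive and 4 negative, with a median of 0.15 against -0.02. The 5 tested receptors had 2 positive and 3 negative differences in each of the 3 comparisons. Their median was -0.38 for SES against BMS. It was -0.07 for ZES against BMS, turning to 0.09 with median centring. For ZES against SES it was -0.44, turning to 0.09 with the GAPDH covariate and to 0.12 with the probe sets of a gene averaged. In that averaged fit IL1R1 fell below the filter, so 0.12 is the median of the other receptors. Median centring itself moved the median of all probe sets to 0.17 for SES against BMS and 0.14 for ZES against BMS.

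**Figure D2:**
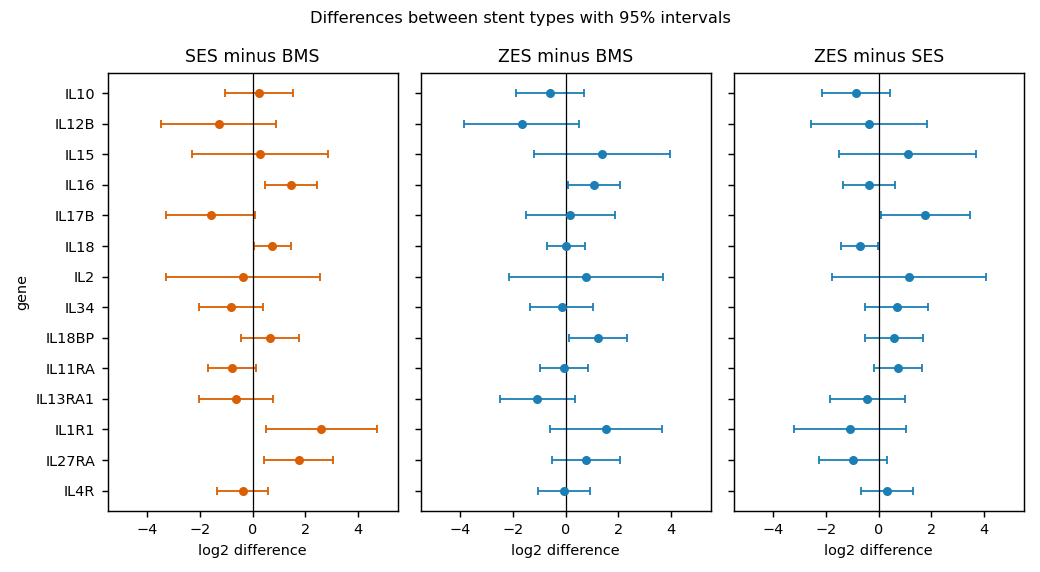
Difference in log2 signal (horizontal axis) for the 14 tested genes (vertical axis) in 3 comparisons of stent types; points are limma estimates and bars their 95% intervals, before any adjustment for multiple testing. For SES against BMS the intervals of IL16, IL18, IL1R1 and IL27RA lie to the right of 0, and after adjustment no gene passed in any panel.

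Among the ligands, IL16, a chemoattractant for CD4+ cells that binds CD4, had the smallest p for SES against BMS. Its log2 signal was 6.90, 6.70, 8.37 and 6.97 on BMS 1 to 4, 8.51, 7.85, 9.54 and 8.82 on SES 1 to 4, and 8.42, 8.56, 8.14 and 8.08 on ZES 1 to 4. BMS 3 lay far above the other BMS arrays and within the range of both drug-eluting groups, so the groups overlapped, while the ZES arrays lay close together. The means were 7.23 ± 0.76 with BMS, 8.68 ± 0.70 with SES and 8.30 ± 0.23 with ZES (SD, n = 4). The difference between SES and BMS was 1.45 ± 0.47 (log2, estimate ± SE, 2.73-fold, adjusted p = 0.158 in limma), and that between ZES and BMS was 1.07 ± 0.47 (2.10-fold, adjusted p = 0.520). SES and ZES differed by -0.38, with a 95% interval from -1.37 to 0.62. Without BMS 3 and BMS 4, the arrays of one pig, the SES difference was 1.88 with adjusted p = 0.0540, the smallest over the alternatives tried.

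Markers of T and NK cells are set beside IL16 because they include its receptor. Of 14 listed markers 9 were measured and 5 tested. Of the 5, 4 had positive and 1 a negative difference for SES against BMS and 1 passed, while 3 were positive and 2 negative for ZES against BMS and none passed. Without the filter 5 of 9 were positive and 4 negative in both comparisons. Their summed linear signal was 287 to 456 on BMS arrays, 656 to 1248 on SES arrays and 368 to 903 on ZES arrays. CD3E, part of the CD3 complex of T cells, was above background on no BMS array, and its SES mean exceeded BMS at least 4.33-fold (limma adjusted p = 0.0172). CD3E passed in 24 of 32 alternatives. It did not pass with the spike-in covariate (adjusted p = 0.676), the GAPDH covariate (0.146) or the artery term (0.0780). With the spike-in or the GAPDH covariate 0 of 16799 probe sets passed for SES against BMS. Nor did it pass without SES 1, SES 2 or SES 3 (0.0661, 0.0511 and 0.112), or without both SES arrays of either pig (0.223 and 0.0747). CD4 was not above background on any BMS array either, and CD3D was at 0 on at least 1 array. The highest mean of the T and NK markers and the highest IL16 signal were both on SES 3. Within the other groups the peaks differed. The marker mean was highest on BMS 1 and ZES 3, and IL16 on BMS 3 and ZES 2. The part of these cells in the IL16 values was not tested, and in whole tissue fewer cells of a type cannot be told apart from less RNA per cell.

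IL18, an interleukin-1 family member that caspase-1 activates and that induces interferon gamma, gave 10.82, 10.21, 11.60 and 10.79 on BMS 1 to 4. It gave 11.47, 11.67, 12.08 and 11.17 on SES 1 to 4 and 11.38, 10.41, 11.21 and 10.49 on ZES 1 to 4. SES 3 held the highest value, and all 3 groups overlapped. The difference between SES and BMS was 0.74 ± 0.34 (adjusted p = 0.323 in limma) and that between ZES and SES was -0.73 ± 0.34 (adjusted p = 0.489). ZES and BMS differed by 0.02, with a 95% interval from -0.70 to 0.73. IL18 is produced as an inactive precursor, and CASP1, the enzyme that cleaves it, gave the opposite sign, at -1.35 for SES against BMS (adjusted p = 0.139 in limma).

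IL18BP, the inhibitor of this ligand, gave 8.74, 8.10, 8.31 and 9.71 with BMS and 10.11, 9.16, 9.73 and 8.50 with SES. With ZES it gave 10.93 and 10.88 in one pig and 9.14 and 8.85 in the other, so that the animals with ZES differed by more than the segments within either. The difference between ZES and BMS was 1.23 ± 0.52 (2.35-fold, adjusted p = 0.503 in limma). It was 2.19 without the pig with ZES 3 and ZES 4 and 0.28 without the pig with ZES 1 and ZES 2. The receptor chain IL18R1 was above background only on BMS 3 (6.01) and BMS 4 (5.74), both from one pig, and on no SES or ZES array.

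IL17B, a member of the interleukin-17 family, gave 8.74, 7.45, 7.36 and 6.99 on BMS 1 to 4 and 6.61, 8.10, 7.98 and 8.55 on ZES 1 to 4. The SES arrays gave 6.35, 3.70, 5.55 and 8.57. SES 2 was below background, and SES 4 lay with the other groups. SES minus BMS was -1.59 ± 0.80 (adjusted p = 0.377 in limma), and ZES exceeded SES by 1.76 ± 0.80 (adjusted p = 0.473). Without SES 4 the differences were -2.44 (adjusted p = 0.0765) and 2.62. With the spike-in covariate the difference between SES and BMS turned to 0.81 (adjusted p = 0.943). The other probe sets of IL17B, above background on 10 and 6 arrays, gave -1.44 and -0.68 for SES against BMS and 1.64 and 0.94 for ZES against SES.

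Smooth muscle markers had a like split among the SES arrays. The mean log2 signal of the 6 measured markers was 8.56, 8.27 and 8.69 on SES 1 to 3 and 11.44 on SES 4, and 9.26 on ZES 1, which had the lowest IL17B value of its group. It was 11.06 to 12.23 on the BMS arrays. Their summed linear signal was 63000 to 132270 with BMS, 15112 to 75215 with SES and 20014 to 128065 with ZES, and none was at 0 on any array. All 6 differences between SES and BMS were negative, with a median of -2.12. None was called after the filter, and CNN1 (-3.15) was called in the fit without it (adjusted p = 0.0804 and 0.0468 in limma), where 0.763% of all probe sets passed. CNN1 passed in 5 of 32 alternatives. It gave -2.31 with the artery term (limma adjusted p = 0.227) and -1.80 with the spike-in covariate (0.864). The split was not particular to smooth muscle. The mean log2 signal of the 4 measured fibroblast markers was 10.77, 10.48 and 10.36 on SES 1 to 3 and 11.57 on SES 4. Within ZES it was lowest on ZES 1 (9.97). The mean of the 5 measured heart muscle markers was also highest within SES on SES 4, but within ZES it was lowest on ZES 3. The part of any of these markers in the IL17B values was not tested.

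IL34, which signals through the CSF1 receptor on macrophages, gave 6.32 to 7.92 with BMS, 5.90 to 6.88 with SES and 6.30 to 8.22 with ZES. SES minus BMS was -0.83 ± 0.57 (adjusted p = 0.536 in limma), and the groups overlapped. IL10, which restrains macrophage and T cell activation, was even across SES, from 6.76 to 7.43. With BMS it ranged from 5.67 to 7.82 and with ZES from 5.33 to 7.52, and the differences were 0.25 for SES and -0.60 for ZES against BMS.

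**Figure D3:**
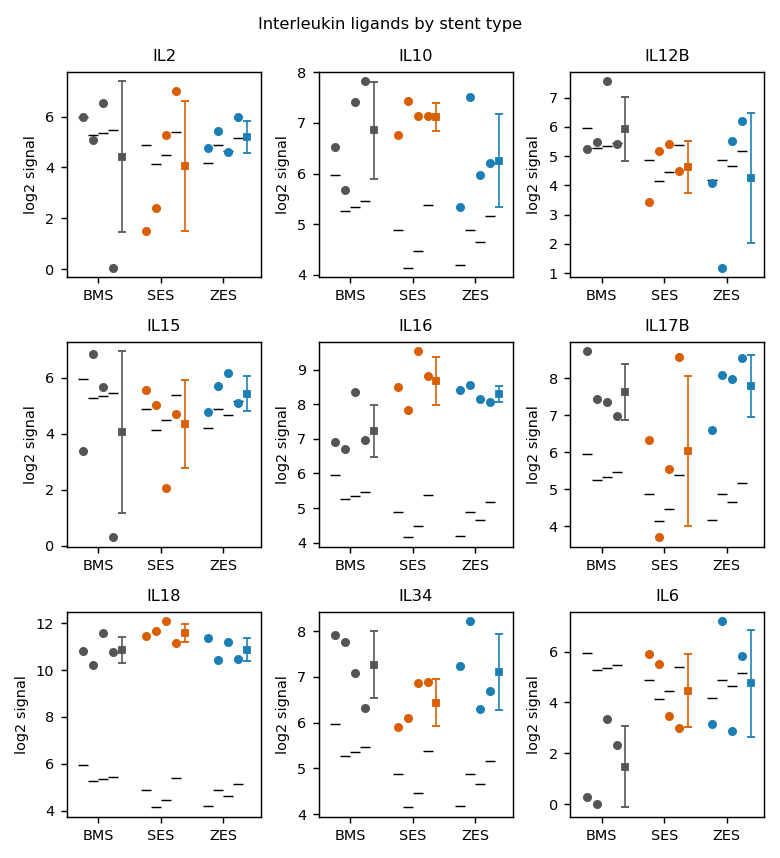
Log2 signal (vertical axis) of the 8 tested ligands and of IL6 by stent type (horizontal axis); circles are arrays 1 to 4 from left to right, squares with bars are means ± SD, and black dashes are each array's background level. IL16 is lower on 3 BMS arrays than on any SES or ZES array, and IL6 lies below background on all 4 BMS arrays.

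The other tested ligands lay near background. IL12B, the shared p40 subunit of interleukin-12 and interleukin-23, was above background on 2 arrays of each group. It gave 5.25, 5.47, 7.56 and 5.41 with BMS, 3.42, 5.17, 5.42 and 4.49 with SES and 4.08, 1.19, 5.52 and 6.19 with ZES. BMS 3 was the only array above 7, and the differences from BMS were -1.30 ± 1.04 for SES and -1.67 ± 1.04 for ZES (adjusted p = 0.599 and 0.659 in limma). IL15, which sustains T and NK cells, gave 3.40, 6.85, 5.68 and 0.29 with BMS, 5.57, 5.03, 2.04 and 4.69 with SES and 4.77, 5.69, 6.16 and 5.09 with ZES. IL2, a T cell growth factor, gave 6.0, 5.08, 6.54 and 0.06 with BMS, 1.48, 2.40, 5.29 and 6.99 with SES and 4.75, 5.43, 4.59 and 5.97 with ZES. Both were above background on 2 BMS, 2 SES and 3 ZES arrays, and BMS 4 gave the lowest value of each. Their differences from BMS were 0.28 and 1.37 for IL15 and -0.38 and 0.77 for IL2 (SES and ZES), with adjusted p between 0.777 and 0.944 in limma.

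Among the receptors, IL27RA, the specific chain of the interleukin-27 receptor on T cells and other leukocytes, was the only gene of the 14 whose SES and BMS values did not overlap, where 4.23% of all probe sets were higher without overlap and 4.51% lower. It gave 7.30, 8.37, 7.24 and 7.82 on BMS 1 to 4 and 8.77, 9.72, 9.24 and 9.97 on SES 1 to 4. The ZES arrays gave 10.80, 7.78, 8.21 and 7.02. ZES 1 held the highest value of all 12 arrays and ZES 4 the lowest. The difference between SES and BMS was 1.74 ± 0.62 (3.34-fold, adjusted p = 0.189 in limma), and without the pig with ZES 1 and ZES 2 the adjusted p was 0.0493. Those arrays are not part of this comparison, so their removal left the difference itself unchanged. With the SES and BMS arrays alone none of the 14 genes, IL27RA included, passed in limma. The smallest adjusted p among the 14 in that fit was 0.0625, not necessarily that of IL27RA. With the spike-in signal as a covariate the IL27RA difference between SES and BMS was -0.04, in a fit that cannot tell that signal apart from the stent. ZES differed from BMS by 0.77 ± 0.62 and from SES by -0.97 ± 0.62 (adjusted p = 0.744 and 0.647).

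IL1R1, the signalling receptor for interleukin-1, gave 7.15, 6.07, 7.21 and 6.41 on SES 1 to 4 and 4.79, 5.94, 6.35 and 5.40 on ZES 1 to 4, all above background. With BMS it gave 2.10 and 1.61 on the RCA arrays, below background, and 6.61 and 6.09 on the LAD arrays. The 2 low values were both in the BMS group, whose LAD arrays lay within the SES range. The difference between SES and BMS was 2.61 (95% interval 0.49 to 4.73, 6.09-fold, adjusted p = 0.231 in limma), with only 2 of 4 BMS arrays measured above background. A further IL1R1 probe set, above background on 3 of 12 arrays, gave -2.67 for SES against BMS, so the probe sets disagree in sign. Averaged and fitted without the filter, they gave -0.03 ± 0.97 (adjusted p = 0.994).

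IL4R, the chain shared by the receptors for interleukin-4 and interleukin-13, gave 8.25 to 9.59 with BMS, 7.74 to 9.08 with SES and 8.14 to 10.01 with ZES. Its differences were -0.38 ± 0.46 for SES and -0.07 ± 0.46 for ZES against BMS. Its other probe set was not above background on any array. IL13RA1, which pairs with IL4R, gave 6.89, 6.22, 6.12 and 5.12 with BMS, 5.10, 6.02, 5.24 and 5.45 with SES and 4.38, 5.03, 5.06 and 5.60 with ZES, with BMS 4 below background. Its differences from BMS were -0.64 ± 0.67 for SES and -1.07 ± 0.67 for ZES (adjusted p = 0.712 and 0.660 in limma). IL11RA, the specific chain for interleukin-11, gave 9.30, 11.46, 10.66 and 10.52 with BMS, 10.04, 9.08, 9.76 and 9.87 with SES and 9.42, 10.59, 10.55 and 11.11 with ZES. SES minus BMS was -0.80 ± 0.43 (adjusted p = 0.420), and BMS 1 lay among the SES values.

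**Figure D4:**
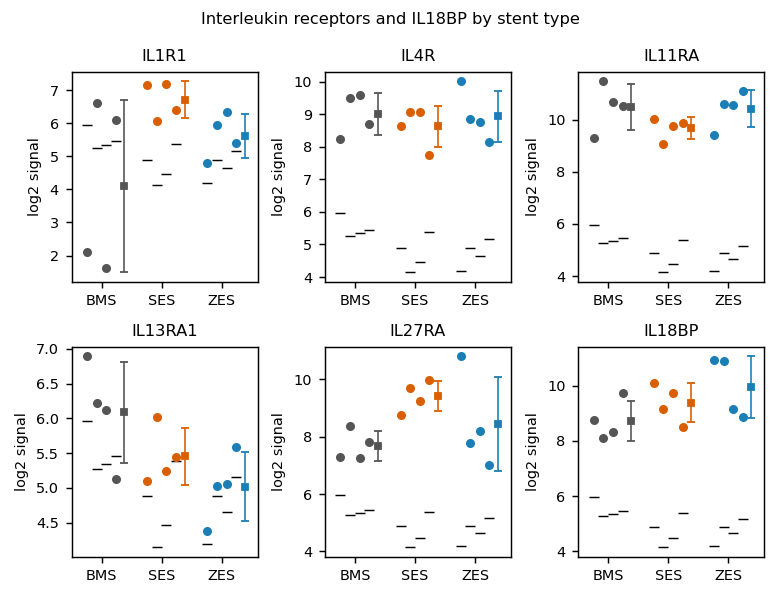
Log2 signal (vertical axis) of the 5 tested receptors and IL18BP by stent type (horizontal axis); circles are arrays 1 to 4 from left to right, squares with bars are means ± SD, and black dashes are each array's background level. The lowest SES value of IL27RA, 8.77, lies above its highest BMS value, 8.37, and IL1R1 is below background on BMS 1 and BMS 3.

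Compared directly at the same 28 days, the sirolimus and zotarolimus stents were not separated by the test for any of the 14 genes. No gene had groups without overlap between ZES and SES, where 2.94% of all probe sets were higher in ZES and 3.06% lower. Nor did any between ZES and BMS, where these shares were 1.58% and 2.23%. The intervals for ZES minus SES remained wide. They ran from 0.08 to 3.45 for IL17B, from -1.44 to -0.02 for IL18, from -0.19 to 1.64 for IL11RA and from -2.27 to 0.33 for IL27RA, before adjustment. Each of these intervals holds differences larger than 1 in size on the log2 scale, and doses were not known.

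The 12 genes removed by the filter include the cytokines of type 2 immunity. IL6, a cytokine of the acute phase response, was below background on all BMS arrays (0.28, 0.00, 3.34 and 2.31). It was above background on SES 1 (5.90) and SES 2 (5.52), both from one pig, and on ZES 2 (7.20) and ZES 4 (5.83), both from the LAD. The other arrays gave 3.46 and 3.00 with SES and 3.15 and 2.87 with ZES, below background. In the fit without the filter IL6 was 2.99 ± 1.21 higher with SES and 3.28 ± 1.21 higher with ZES than with BMS on the log2 scale (adjusted p = 0.291 and 0.429 in limma), and these sizes rest on BMS signals that are not measured above background. No lower bound for the fold can be given, since the bound is under 1. The pattern of no BMS array and at least 2 arrays of each drug-eluting group above background was shared by 1.65% of all probe sets. Counted with each drug-eluting group alone, the share was 3.19% for SES and 3.44% for ZES. The lowest BMS background, 5.27, was above every ZES background and all SES backgrounds but that of SES 4. In that fit too none of the 26 genes passed, against 0.763% of all probe sets for SES with BMS, 0.0125% for ZES with BMS and 0.2% for ZES with SES, and 6, 3 and 2 of 26 had an unadjusted p under 0.05, against 12.6%, 8.99% and 8.85%. The F test in that fit called 0 of 26, against 0.45% of all probe sets, with 3 at an unadjusted p under 0.05 against 12.2%, and the artery comparison called 0 of 26, against 0.0%, with 2 against 6.32%.

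IL4, IL13 and IL5 drive type 2 responses, and in the RefSeq annotation of the Sscrofa11.1 assembly IL4 and IL13 are adjacent genes with IL5 close by, 2 coding genes beyond IL13. They were not detected together. IL4 was above background on SES 2 (4.89) and SES 3 (5.81) only, IL13 on BMS 3 (5.61) only, and IL5 on BMS 3 (6.03), SES 3 (4.72) and ZES 4 (5.38). IL21, which supports B cell help and neighbours IL2, was above background on BMS 1 (6.35) and BMS 2 (5.64), both from one pig. IL12A, the p35 subunit of interleukin-12, was above it on ZES 4 alone (5.34), and so was IL12RB2 (5.21), a chain of the interleukin-12 receptor.

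The remaining receptors were detected on few arrays. IL10RB, a chain of the interleukin-10 receptor, was above background on BMS 2 (5.42), SES 2 (5.55) and SES 3 (5.74) and on no ZES array. IL6R, the specific chain for interleukin-6, was above it on 1 array of each group, BMS 3 (5.83), SES 3 (4.88) and ZES 1 (4.25). BMS 3, the array on which IL12B and IL16 stood highest within their group, thus also held the only IL13 signal and the highest IL5 signal.

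Downstream genes were listed from the pathways these receptors use, and none passed the threshold in any comparison after the filter. Without it 1 passed, NFKBIA for SES against BMS, where 0.763% of all probe sets passed. Of 27 JAK-STAT genes 16 were measured and 14 tested; for SES against BMS 8 were positive and 6 negative, with a median of 0.06. JAK3, the kinase that partners the common gamma chain of the receptors for interleukin-2, interleukin-4 and interleukin-15, gave 9.72 with SES against 8.23 with BMS as means (difference 1.5 ± 0.49, adjusted p = 0.159 in limma). JAK1 gave a difference of 0.67 ± 0.26 (adjusted p = 0.230) and SOCS1, an inhibitor of JAK signalling, 1.71 ± 0.77 (adjusted p = 0.315), with SOCS1 above background on 1 of 4 BMS arrays and all SES arrays.

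Of 22 genes of interleukin-1 family processing and signalling 11 were measured and 8 tested, with 5 positive and 3 negative for SES against BMS and a median of 0.55. NFKBIA, the NF-kappa B inhibitor that NF-kappa B itself induces, was the nearest to the threshold, at 12.90 with SES and 11.55 with BMS (difference 1.35 ± 0.31, adjusted p = 0.0569 in limma). Its SES and BMS values did not overlap, where 4.23% of all probe sets were higher without overlap. Its adjusted p was 0.0461 without the filter, and it passed in 7 of 32 alternatives. It did not pass with the spike-in covariate (limma adjusted p = 0.812), the GAPDH covariate (0.402) or means per pig (0.125). IKBKG, a subunit of the kinase complex that targets it, gave 2.22 ± 0.49 for ZES against BMS (adjusted p = 0.265) and 1.61 ± 0.49 for ZES against SES (adjusted p = 0.228). Of 8 T helper regulators 3 were measured and 2 tested: IFNG gave 1.47 ± 0.81 and GATA3 1.43 ± 1.01 for SES against BMS (limma adjusted p = 0.428 and 0.546). Of 25 other haematopoietin ligands and receptors 8 were measured and none passed the filter on low values.

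The arteries were compared within the 5 pigs that had both an LAD and an RCA segment, on 10 arrays. None of the 14 genes passed in limma, with 0.0% of all probe sets called, and 1 had an unadjusted p under 0.05, against 6.86% of all probe sets. That gene was IL18, which was lower in the LAD in all 5 pigs, by -0.61 and -0.81 in the BMS pigs, -0.91 in the SES pig and -0.97 and -0.72 in the ZES pigs as log2 differences. Of all probe sets 3.77% were lower and 4.71% higher in the LAD in every pig. IL18 averaged 10.61 ± 0.37 in the LAD and 11.42 ± 0.47 in the RCA (SD, n = 5), a difference of -0.81 ± 0.26 (adjusted p = 0.722 in limma). Marker lists in the same comparison had 0 called in each. All 6 smooth muscle markers (median 1.27), 4 of 4 fibroblast markers (median 0.71) and 3 of 3 tested heart muscle markers (median 2.33) had positive differences, and 4 of 5 tested T and NK markers negative ones (median -0.39). Their part in the IL18 difference was not tested.

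For IL27RA the artery difference had opposite signs by stent type, at 1.07 and 0.58 in the BMS pigs and 0.73 in the SES pig against -3.02 and -1.20 in the ZES pigs. IL1R1 was higher in the LAD by 4.51 and 4.48 in the BMS pigs, and its ZES pigs gave 1.15 and -0.95. A limma interaction of artery and stent type, BMS pigs minus ZES pigs, chosen after these values were seen, gave 2.93 ± 0.999 for IL27RA (adjusted p = 0.531) and 4.39 ± 1.85 for IL1R1 (adjusted p = 0.588), and called none of the 14 genes.

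**Figure D5:**
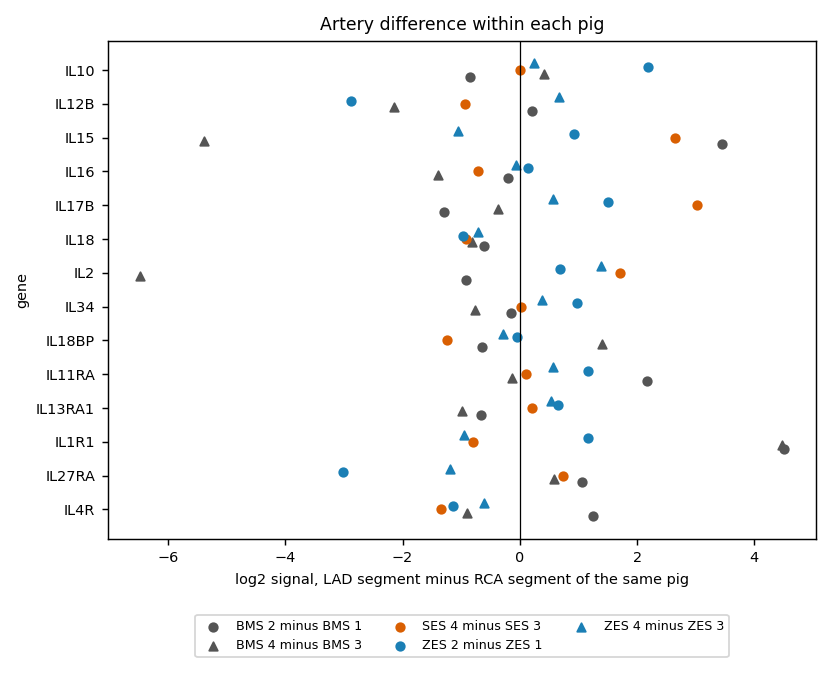
Difference in log2 signal between the LAD and RCA segments of the same pig (horizontal axis) for the 14 tested genes (vertical axis); each symbol is 1 of 5 pigs, coloured by stent type. IL18 lies left of 0 in all 5 pigs, and IL1R1 in the BMS pigs stands at 4.51 and 4.48.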

How the data were processed

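Total RNA of 12 stented artery segments was hybridised to a porcine Affymetrix array. The deposited values are log2 signals. The submitters' processing notes name MAS5 and version 5.0 of Affymetrix Expression Console. The scale and log base were read from the values, since the linear trimmed mean is about 500.15 to 500.17 on every array. MAS5 scales each array to one trimmed mean, so a change in total RNA is not visible. A floor of 0 holds 41 to 1153 probe sets of an array.

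Of 24123 probe sets, 124 controls were left out and the 30% with the lowest mean were removed, which left 16799. A probe set was named only where the platform annotation gives 1 symbol (10069 do, 198 have several, 13732 none), and of several for a gene the one of highest mean over the arrays was used. The 26 genes have 30 such probe sets and all 26 were found in RefSeq by gene identifier. The limma package (3.58.1, with statmod 1.5.0 under R 4.3.3) fitted stent type on all 12 arrays, with the pig as a random block (consensus correlation -0.0322, which makes the test slightly more liberal), a variance trend, two-sided tests, Benjamini-Hochberg adjustment over all 16799 probe sets and a threshold of 0.05. The artery fit took the pig as a fixed term. With 2 pigs per group the p-values measure mainly the spread between segments. Where a group was nowhere above background, a fold is given only as a bound against the higher of background and signal, and only where that bound exceeds 1. The procedure was tested on simulated data drawn independently for each array, so this did not check the effect of segments that share a pig.

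The genes named in detail are, by rule, those with the smallest F test p, those with the largest differences in each comparison, and a fixed panel; of pathway lists, those with the smallest p. The members and lists were chosen with earlier results of these data known, so no list has a test of its own. Alternatives changed the scaling, filter, pseudocount, block, covariates, and the arrays or pigs included.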

Additional observations from a re-analysis of the deposited data

Results flagged for a closer look

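In the 78 groups of 4 arrays (26 genes, 3 stent types), a single array stood apart from the other 3 by Dixon's criterion in 2, where chance alone gives about 1 in 20 groups. IL12B on BMS 3 was 7.56, with the next highest BMS array at 5.47. IL16 on BMS 3 was 8.37, with the next highest at 6.97. Both are the same array.

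Some genes outside the test on filtered values were above background on at least 2 arrays of a drug-eluting group and on none of the BMS group. IL4 did so with SES, at a group mean of 3.72. IL6 did so with SES, at a mean of 4.47, and with ZES, at a mean of 4.76. Of all probe sets 3.19% had this pattern with SES and 3.44% with ZES.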

How the results depend on the processing

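The count of interleukin genes called stayed at 0 in all comparisons and alternatives except one: for SES against BMS the range over arrays and pigs left out was 0 to 1, and the 1 was IL27RA (adjusted p = 0.0493) without the pig with ZES 1 and ZES 2. The median of the ligands, SES against BMS (main value -0.06), was 0.60 with the spike-in covariate and -0.97 with the GAPDH covariate, and ranged from -1.06 (without BMS 4) to 0.37 over arrays and pigs left out. The median of the ligands, ZES against SES (0.15), ranged from -0.73 (without the pig with SES 1 and SES 2) to 0.65. The median of the receptors, SES against BMS (-0.38), was -1.21 with the GAPDH covariate. The cause of these shifts was not tested. Among 55 differences of single genes, 28 kept their sign in every alternative and 27 did not, and none of the 55 passed as reported. Changing only the block, the variance trend or the filter leaves a difference itself unchanged. So does leaving out arrays of the stent type not compared. A sign kept in those alternatives is therefore no support. IL27RA, called once above, was -0.04 for SES against BMS with the spike-in covariate, and that call was the only one among 1729 recomputed values. IL16 kept its sign for SES against BMS in 32 alternatives and IL1R1 in 31; with averaged probe sets IL1R1 fell below the filter and gave -0.03 without it, a value computed after seeing the data. For IL18 the difference between LAD and RCA was -0.91 to -0.76 over 28 alternatives, which were chosen after seeing the data. It was negative in each of the 5 pigs, so leaving out arrays or pigs could not change its sign. Leaving out SES 1 or SES 2 repeats the main fit, since their pig had no LAD segment. No paired analysis was possible because each pig carried 1 stent type and the labels give the groups no shared replicate numbers. Signals at or below background on at least 1 array limit 18 of 26 genes, and 2 pigs per group limit all.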
